A study of Mus musculus with 6 samples.

Results

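The kinases and adaptors at the core of the Hippo pathway were followed in ribosome-associated RNA of mouse lung pericytes. They are the 10 genes Lats1, Lats2, Stk3, Stk4, Sav1, Mob1a, Mob1b, Nf2, Wwc1 and Wwc2, chosen by gene symbol from the 21603 genes listed for each sample, and all 10 were found. RNA was pulled down with an antibody against an HA tag from frozen lungs of C57BL/6 mice at postnatal day (P) 8. The tag is carried by the ribosomal protein RPL22 after Cre recombination (RiboTag), so that the precipitate is enriched for RNA on ribosomes of recombined cells. Mice of both groups carried Pdgfrb(BAC)-CreERT2 and a floxed Rpl22 allele and received tamoxifen from P0 to P2. Controls (n = 3) were heterozygous for both floxed genes (Yap1+/-;Wwtr1+/-), and Yap1,Wwtr1 iPCKO mice (n = 3) were homozygous (Yap1-/-;Wwtr1-/-), so every control had also lost a copy of each gene in recombined cells. The series compares these groups to ask what the transcriptional regulators YAP1 and TAZ (encoded by Wwtr1) do in pericytes. The Cre line recombines cells that express Pdgfrb, and the cells were not sorted before the precipitation.

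The Hippo pathway is a kinase cascade that restrains YAP1 and TAZ. The MST kinases (Stk3 encodes MST2 and Stk4 encodes MST1), with the scaffold SAV1, phosphorylate the LATS kinases and their cofactor MOB1, and active LATS phosphorylates YAP1 and TAZ, which are then held in the cytoplasm or degraded. The merlin protein (Nf2) and the WWC proteins bring the kinases together upstream. In the nucleus YAP1 and TAZ act with TEAD transcription factors, which bind the MCAT element, and genes of the cascade itself, Lats2 among them, are known targets in other cells.

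Only 1 of the 10 core transcripts passed both thresholds in Yap1,Wwtr1 iPCKO pericytes, namely Lats2, which fell to 40.3% of its control level. Sav1, Wwc2, Stk3 and Lats1 also lay below all controls in all iPCKO samples without passing both thresholds, at 65.7%, 72.0%, 77.1% and 89.6% of the control mean. The control and iPCKO samples of Mob1a, Mob1b, Nf2, Wwc1 and Stk4 overlapped. Values are the authors' RPKM (reads divided by gene length and library size), tested as log2(RPKM + 0.1) with limma, and a gene was called where its adjusted p was under 0.01 and its log2 fold change lay more than 0.5 from 0. A floor of 1 RPKM, to be reached in 3 or more samples, left 12034 genes, the 10 core genes among them. Of these genes, 6.79% were called (4.11% higher and 2.68% lower in iPCKO). All 3 iPCKO samples lay below all 3 controls in 17.1% of the tested genes, and above them in 18.3%, against 5 and 0 of the 10 core genes. The estimate was below 0 for each of the 10 genes and for 50.02% of all tested genes. The median log2 fold change was -0.17 over the core genes and 0.00 over all tested genes.

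**Figure D1:**
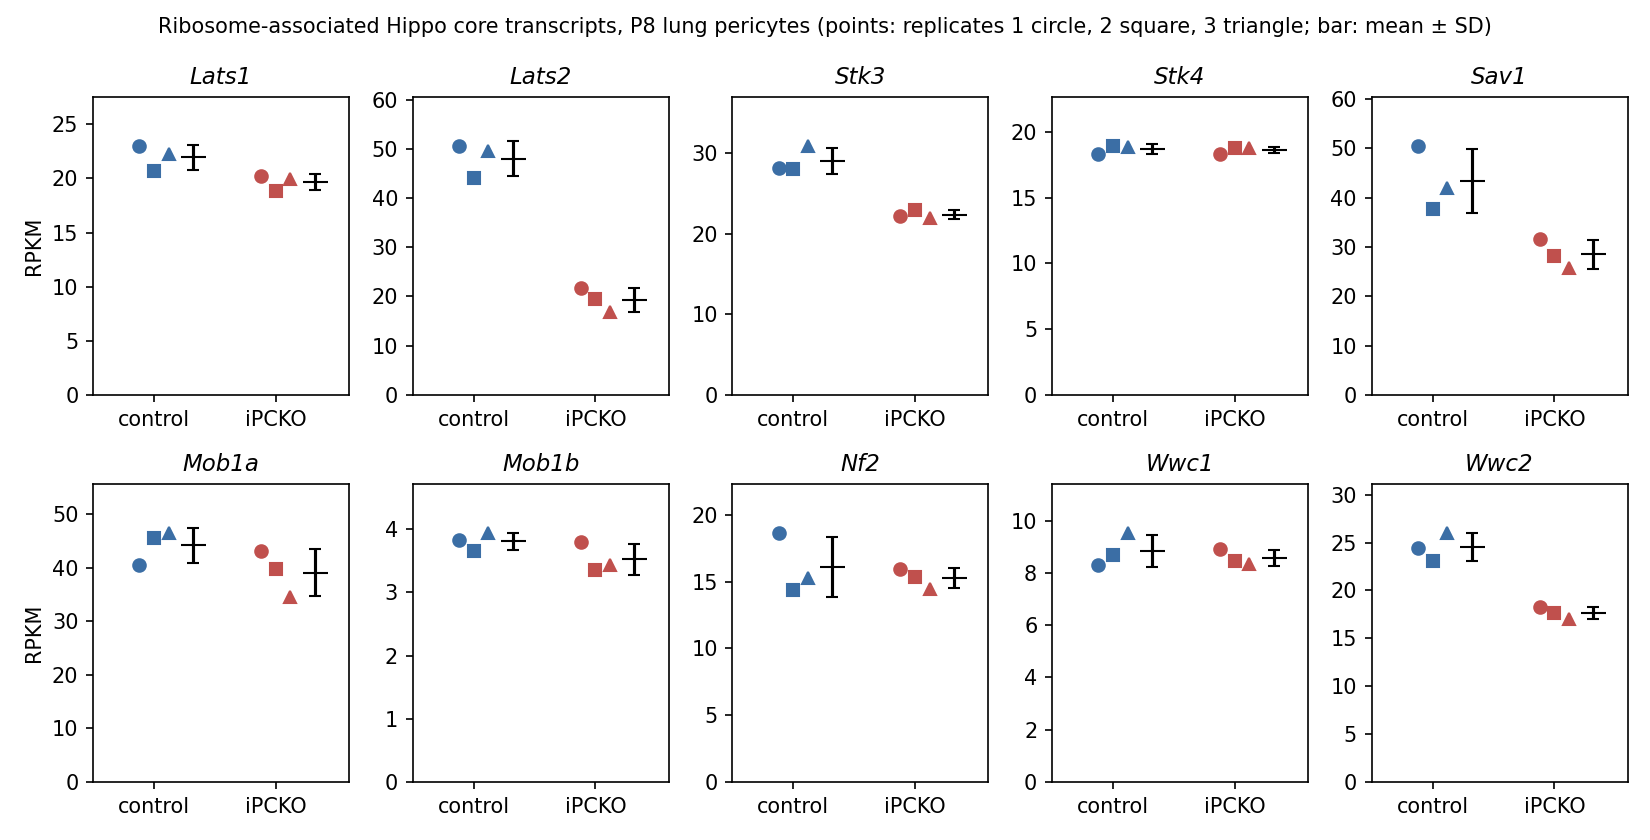
RPKM of the 10 Hippo core transcripts in each of the 3 control (blue) and 3 Yap1,Wwtr1 iPCKO (red) samples, with the group mean ± SD (bar) and an axis of its own from 0 for each gene. Lats2 lay between 44.0 and 50.5 RPKM in controls and between 16.8 and 21.8 in iPCKO samples, while the samples of Stk4 all lay between 18.3 and 18.9 RPKM.

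The sequence before the start site is shown for the genes whose window held the core of the MCAT element, since Lats2, Sav1 and Wwc2 were lower in all iPCKO samples and Mob1a was not. The letters GGAATG were searched on both strands (CATTCC on the other) in RefSeq promoter windows on GRCm38.p6, from 250 bases before to 50 after each start. Of the 10 genes, 9 matched, with 11 windows, and Stk3 had no entry. The core stood in 4 of the 11 windows, against 14.7% of all 32851 windows of that length. Each run below is the 250 bases upstream, 5′ to 3′ on the strand of the gene, with the core in capitals.
Lats2, chr14:57746124-57746373, minus strand: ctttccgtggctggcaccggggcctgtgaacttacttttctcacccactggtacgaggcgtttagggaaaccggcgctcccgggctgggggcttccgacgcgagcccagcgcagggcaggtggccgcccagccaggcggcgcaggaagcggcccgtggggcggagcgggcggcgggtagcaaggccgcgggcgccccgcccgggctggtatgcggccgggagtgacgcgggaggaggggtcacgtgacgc
Wwc2, chr8:47990545-47990794, minus strand: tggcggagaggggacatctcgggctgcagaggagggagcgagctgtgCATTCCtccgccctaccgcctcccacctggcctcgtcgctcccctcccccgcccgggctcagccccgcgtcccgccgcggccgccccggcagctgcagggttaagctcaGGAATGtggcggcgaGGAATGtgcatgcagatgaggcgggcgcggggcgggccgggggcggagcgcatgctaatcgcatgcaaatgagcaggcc
Sav1, chr12:69987003-69987252, minus strand: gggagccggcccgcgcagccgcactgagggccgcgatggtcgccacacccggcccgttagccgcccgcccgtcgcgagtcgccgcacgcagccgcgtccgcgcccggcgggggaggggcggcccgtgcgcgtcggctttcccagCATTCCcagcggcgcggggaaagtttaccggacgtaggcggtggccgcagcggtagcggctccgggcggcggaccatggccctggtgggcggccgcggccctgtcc
Mob1a, chr6:83325789-83326038, plus strand: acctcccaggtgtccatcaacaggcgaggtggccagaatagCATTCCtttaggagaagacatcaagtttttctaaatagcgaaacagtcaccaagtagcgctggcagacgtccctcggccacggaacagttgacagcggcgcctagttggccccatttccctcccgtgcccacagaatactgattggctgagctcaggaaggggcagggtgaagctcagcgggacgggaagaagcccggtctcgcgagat
The window of Wwc2 held 3 copies, which began 79, 94 and 203 bases upstream. Sav1 held 1 copy, 106 bases upstream, and Mob1a 1 copy, 209 bases upstream. No capitals stand in the run of Lats2, because its copy lay 4 bases after the start, at chr14:57746114-57746119, shown here with 10 bases on either side.
Lats2 site: tgacgcccgtGGAATGccaacaatgt
The windows of Lats1, Stk4, Mob1b, Nf2 and Wwc1 and another start of Lats2 held no copy. A match describes these letters only and is not evidence of binding. Mob1a, whose groups overlapped, held a copy, and Lats1, which was lower in all iPCKO samples, did not.

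Transcripts of the LATS kinases, which phosphorylate YAP1 and TAZ directly, differed from each other. Lats2 (ENSMUSG00000021959, chromosome 14 of GRCm38, 57689662 to 57758388, minus strand) had 50.5, 44.0 and 49.5 RPKM in controls and 21.8, 19.4 and 16.8 RPKM in iPCKO samples. Every iPCKO sample was thus below every control, and the lowest control and the highest iPCKO sample were 22.2 RPKM apart. Its mean level was 48.0 ± 3.49 RPKM (SD, n = 3) in controls and 19.3 ± 2.48 RPKM (n = 3) in iPCKO samples. The difference on the log2 scale was -1.31 (95% interval -1.57 to -1.06, standard error 0.11), with an adjusted p of 0.000199 by limma. Of all tested genes, 77 (0.640%) had a log2 fold change further below 0. The call rested on 1750 to 12534 reads per sample, and counting error was at most 2.39%. The annotation places 2955 bp of Lats2 exon under another gene of the same strand, Gm49361, which the files do not list. Lats1 (ENSMUSG00000040021, chromosome 10, 7681214 to 7716460, plus strand), the paralog, had 23.0, 20.7 and 22.2 RPKM in controls and 20.3, 18.9 and 19.9 RPKM in iPCKO samples. The groups did not overlap, but only 0.44 RPKM separated them. The log2 fold change of Lats1 was -0.16 (95% interval -0.34 to 0.03) and did not pass the test (adjusted p = 0.24, limma).

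The groups between which Lats2, Sav1, Wwc2 and Stk3 differed also differed in blood cell RNA and, in part, in sex. Y-linked transcripts (Ddx3y, Eif2s3y, Kdm5d and Uty) summed to 35.0 and 40.8 RPKM in controls 1 and 3, and to no more than 0.075 RPKM in control 2 and the 3 iPCKO samples. Among the samples without Y-linked transcripts, Lats2 had 44.0 RPKM in the single control and 19.3 RPKM on average in iPCKO, a log2 difference of -1.19 (adjusted p = 0.030, limma), which did not pass the threshold. That comparison, chosen after the data were seen, assumes that the lone control varies like the iPCKO samples, and it called 31 genes in all. With the Y-linked level as a covariate, the log2 fold change of Lats2 was -1.19 (adjusted p = 0.00983, limma) and it was called. Since every iPCKO sample lacked these transcripts, the covariate fit rested largely on control 2 too and was not a separate check. Sex was not balanced between the groups, and its part was not tested beyond these fits. Markers of 4 blood cell types also had higher summed levels in every iPCKO sample. The 10 leukocyte markers summed to 58.6 to 81.9 RPKM in controls and 149.9 to 259.9 RPKM in iPCKO samples, with 9 of the 10 above all controls, and the 10 neutrophil markers to 87.1 to 129.2 RPKM and 448.9 to 4949 RPKM, with 10 of 10 above. All 8 macrophage markers (99.8 to 171.1 against 333.4 to 523.9 RPKM) and 7 of 8 platelet markers (8.04 to 9.99 against 23.4 to 66.5 RPKM) were above all controls. No marker of these lists was at 0 in all samples. All 3 iPCKO samples lay above all controls in 18.3% of tested genes. The sample with the most leukocyte signal, iPCKO 3, had the lowest Lats2, Sav1, Stk3, Mob1a and Wwc2 of all samples. For Lats1, Stk4, Mob1b, Nf2 and Wwc1 another sample was lowest, and iPCKO 3 also had the smallest library (14.26 M reads). Without it, the log2 fold change of Lats2 was -1.22 and remained past the thresholds, while the part of leukocyte RNA in these values was not tested.

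The markers of the labelled cell type were present in every sample. The 8 pericyte markers, Pdgfrb, Cspg4 and Notch3 among them, summed to 2873 to 3682 RPKM in controls and 2642 to 3245 RPKM in iPCKO samples. In iPCKO samples 4 of 8 were above all controls, and no marker was under 1 RPKM in all samples at once. Of all tested genes, 18.3% were above all controls in all 3 iPCKO samples. The 8 endothelial markers summed to 143.1 to 162.4 RPKM over both groups. The mean log2(RPKM + 0.1) of epithelial markers ranged from 4.38 to 4.50 in controls and from 4.71 to 4.73 in iPCKO samples, with 5 of 8 above all controls. That of smooth muscle markers ranged from 6.91 to 7.07 and from 7.32 to 7.41, with 2 of 6 above. The summed levels of the smooth muscle markers overlapped, at 1303 to 1479 RPKM in controls and 1428 to 1567 RPKM in iPCKO samples. The mean log2(RPKM + 0.1) of 8 fibroblast markers overlapped (5.57 to 5.90 and 5.47 to 5.97), as did that of 7 erythrocyte markers (6.17 to 6.75 and 5.77 to 7.44) and of 8 lymphocyte markers (-0.39 to -0.19 and -0.74 to -0.17). Fewer cells of a type and less RNA per cell cannot be told apart in these bulk samples. Library totals recovered from the RPKM values ranged from 14256106 to 39638487 reads. Yap1, the deleted gene that checks the labels, had 12.4 ± 0.86 RPKM in controls and 5.61 ± 0.31 RPKM in iPCKO samples (log2 fold change -1.12, adjusted p = 0.000175, limma). Wwtr1 had 60.4 ± 9.48 and 62.0 ± 1.63 RPKM (log2 fold change 0.05, adjusted p = 0.82, limma), and a single value per gene cannot set recombined exons apart from the rest of the transcript.

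Neither of the MST kinases, which activate LATS, passed the thresholds. Stk3 (ENSMUSG00000022329, chromosome 15, 34875496 to 35178921, minus strand) had 28.2, 28.1 and 30.9 RPKM in controls and 22.2, 23.0 and 22.0 RPKM in iPCKO samples. The groups did not overlap, and the 3 iPCKO samples were close to each other. Its log2 fold change of -0.37 (95% interval -0.56 to -0.19) was short of both thresholds (adjusted p = 0.0167, limma). Stk4 (ENSMUSG00000018209, chromosome 2, 164070322 to 164155524, plus strand) had 18.3, 18.9 and 18.9 RPKM in controls and 18.3, 18.8 and 18.7 RPKM in iPCKO samples. These values overlapped, with coefficients of variation of 1.90% in controls and 1.34% in iPCKO samples beside a counting error of 1.51% to 2.53% per sample. The log2 fold change of Stk4 was -0.005 (95% interval -0.18 to 0.17, adjusted p = 0.98, limma), an interval that does not reach the change of Lats2.

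Sav1, the scaffold that joins MST to LATS, had the next largest estimate after Lats2. Sav1 (ENSMUSG00000021067, chromosome 12, 69965012 to 69987002, minus strand) had 50.4, 37.7 and 42.0 RPKM in controls and 31.6, 28.2 and 25.7 RPKM in iPCKO samples. All iPCKO samples were lower than the controls, and control 1 stood highest. The log2 fold change of -0.60 (standard error 0.13, 95% interval -0.89 to -0.31) passed the threshold on size but not that on significance (adjusted p = 0.0148, limma). Sav1 was called with quantile normalization (-0.64, adjusted p = 0.00355), with limma array weights (-0.53, adjusted p = 0.000801) and with the replicate numbers as a block (-0.60, adjusted p = 0.00446). Among the samples without Y-linked transcripts its log2 difference was -0.41 (adjusted p = 0.23, limma). In the annotation 1336 bp of Sav1 exon lie opposite Atl1, which had 1.79 to 2.01 RPKM in controls and 0.905 to 1.05 RPKM in iPCKO samples, and whether reads were counted by strand is not given in the sources used here.

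The MOB1 adaptors, cofactors that LATS binds, did not pass the test. Mob1a (ENSMUSG00000043131, chromosome 6, 83326016 to 83343776, plus strand) had 40.5, 45.5 and 46.4 RPKM in controls and 43.1, 39.7 and 34.4 RPKM in iPCKO samples. The groups overlapped, since iPCKO 1 was above control 1. Mob1a had a log2 fold change of -0.18 (95% interval -0.42 to 0.07, adjusted p = 0.31, limma). Mob1b (ENSMUSG00000006262, chromosome 5, 88720855 to 88764220, plus strand) was the core transcript with the lowest level, at 3.83, 3.66 and 3.94 RPKM in controls and 3.80, 3.35 and 3.43 RPKM in iPCKO samples. Its groups overlapped too, and the log2 fold change was -0.11 (95% interval -0.34 to 0.13, adjusted p = 0.53, limma).

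No transcript of the upstream proteins passed both thresholds. Wwc2 (ENSMUSG00000031563, chromosome 8, 47823959 to 47990924, minus strand), a WW-domain scaffold related to KIBRA, had 24.5, 23.1 and 26.0 RPKM in controls and 18.2, 17.7 and 17.0 RPKM in iPCKO samples. The groups did not overlap, and 4.84 RPKM separated them. The log2 fold change of Wwc2 was -0.47 (standard error 0.08, 95% interval -0.66 to -0.28), which passed the threshold on the adjusted p-value (0.00666, limma) and missed that on size. Without the threshold on size, 2.86% of tested genes were lower. Wwc2 had a log2 difference of -0.39 (adjusted p = 0.17, limma) among the samples without Y-linked transcripts, and that of Stk3 was -0.33 (adjusted p = 0.21). Wwc2 shares 995 bp of exon with Cldn22 on the opposite strand, which was listed at 0 RPKM in all 6 samples. Wwc1 (ENSMUSG00000018849, chromosome 11, 35838400 to 35980527, minus strand) encodes KIBRA and had 8.31, 8.68 and 9.52 RPKM in controls and 8.92, 8.46 and 8.36 RPKM in iPCKO samples. The samples overlapped, and its log2 fold change was -0.04 (95% interval -0.24 to 0.16, adjusted p = 0.81, limma). Nf2 (ENSMUSG00000009073, chromosome 11, 4765845 to 4849536, minus strand), which encodes the membrane-linked adaptor merlin, had 18.6, 14.4 and 15.3 RPKM in controls and 15.9, 15.4 and 14.5 RPKM in iPCKO samples. Control 1 stood above the other samples, the rest overlapped, and the log2 fold change was -0.07 (95% interval -0.32 to 0.18, adjusted p = 0.73, limma).

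**Figure D2:**
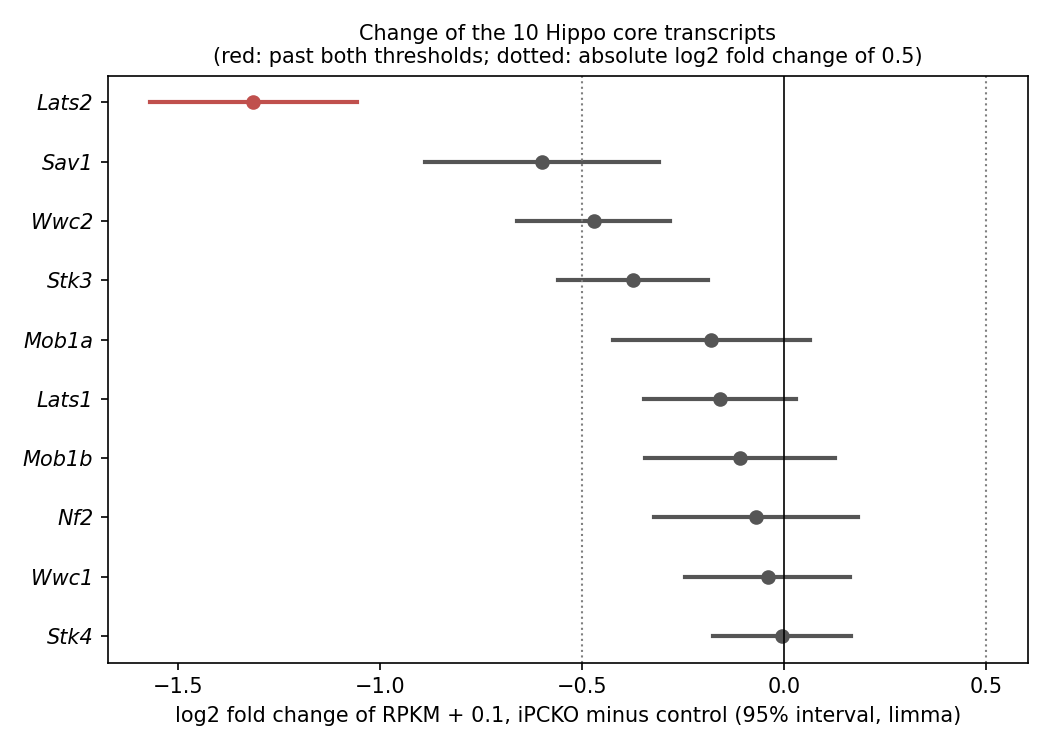
Log2 fold change of RPKM + 0.1, iPCKO minus control, for the 10 core transcripts, with the 95% interval from limma. Lats2 (red, -1.31) was the only one past both thresholds, the intervals of Sav1, Wwc2 and Stk3 lay below 0, and those of the other six crossed 0.

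The order of the mean levels also differed between the groups. In controls Lats2 had the highest mean level (48.0 RPKM), followed by Mob1a (44.1) and Sav1 (43.4), and the sample ranges of neighbours among these overlapped. Stk3, Wwc2, Lats1 and Stk4 came next, each with a range apart from its neighbour, and then Nf2, whose range overlapped that of Stk4. Wwc1 and Mob1b were lowest, each apart from its neighbour. In iPCKO samples Mob1a (39.1 RPKM) and Sav1 (28.5) led, followed by Stk3 (22.4), then Lats1 (19.7), and Lats2 held rank 5 at 19.3 RPKM, with a range that overlapped those of Lats1 and Stk4 (18.6). Lats2 thus moved from rank 1 to rank 5 of 10, while Nf2, Wwc1 and Mob1b kept ranks 8, 9 and 10. These orders rest on the gene length that the authors divided by. The values imply 7303 bp for Lats2, against 6971 bp of exon in the annotation used here. The implied length was shorter for Stk3 (3237 against 6114 bp), Sav1 (2524 against 5265 bp), Wwc2 (6546 against 13784 bp) and Mob1b (10927 against 15033 bp). Per length of the annotation, a choice made after the data were seen, Lats2 had rank 1 in controls and 2 in iPCKO samples, Sav1 ranks 4 and 6, and Stk3 rank 7 in both, below Stk4 (15.4 against 18.7 RPKM in controls). On that length Nf2 had ranks 6 and 5 and Wwc1 ranks 9 and 8, while Mob1b kept rank 10. The fold change of a single gene does not depend on that length.

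Ratios within the paralog pairs were compared sample by sample, and in 3 of the 4 pairs they were lower in all iPCKO samples than in controls. The first genes of these 3 pairs, Lats2, Stk3 and Wwc2, were themselves lower in all iPCKO samples. Their ratios thus restate those differences in part, and no share over other gene pairs was computed. The log2 ratio of Lats2 to Lats1 was 1.13, 1.09 and 1.15 in controls and 0.10, 0.04 and -0.24 in iPCKO samples. Lats2 made up 68.6% ± 0.50 of the summed level of both (SD, n = 3) in controls and 49.4% ± 3.22 in iPCKO samples. Both transcripts were thus at nearly the same level in iPCKO samples. The summed LATS level was 70.0 ± 4.64 RPKM in controls and 39.0 ± 2.73 RPKM in iPCKO samples, or 55.8% of control. Stk3 made up 60.8% ± 1.16 of the MST pair in controls and 54.6% ± 0.59 in iPCKO samples, and the sum went from 47.7 to 41.0 RPKM (85.9% of control). Wwc2 made up 73.5% ± 1.03 of the WWC pair in controls and 67.3% ± 0.32 in iPCKO samples, and the sum went from 33.3 to 26.2 RPKM (78.7% of control). For these pairs the ratios of the groups did not overlap, with an exact two-sided permutation p of 0.1, the smallest that 3 samples against 3 allow (0.13 after adjustment over the 4 pairs). Mob1a made up 92.0% ± 0.61 and 91.7% ± 0.66 of the MOB1 pair, and its ratios overlapped (exact permutation p = 0.6). Shares and sums rest on the lengths too. Per length of the annotation, Stk3 made up 45.1% of the MST pair in controls and 38.9% in iPCKO samples (sum at 89.5% of control), and Wwc2 56.8% and 49.4% of the WWC pair (sum at 82.8%), while Lats2 made up 69.6% and 50.6% of the LATS pair (sum at 55.3%).

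**Figure D3:**
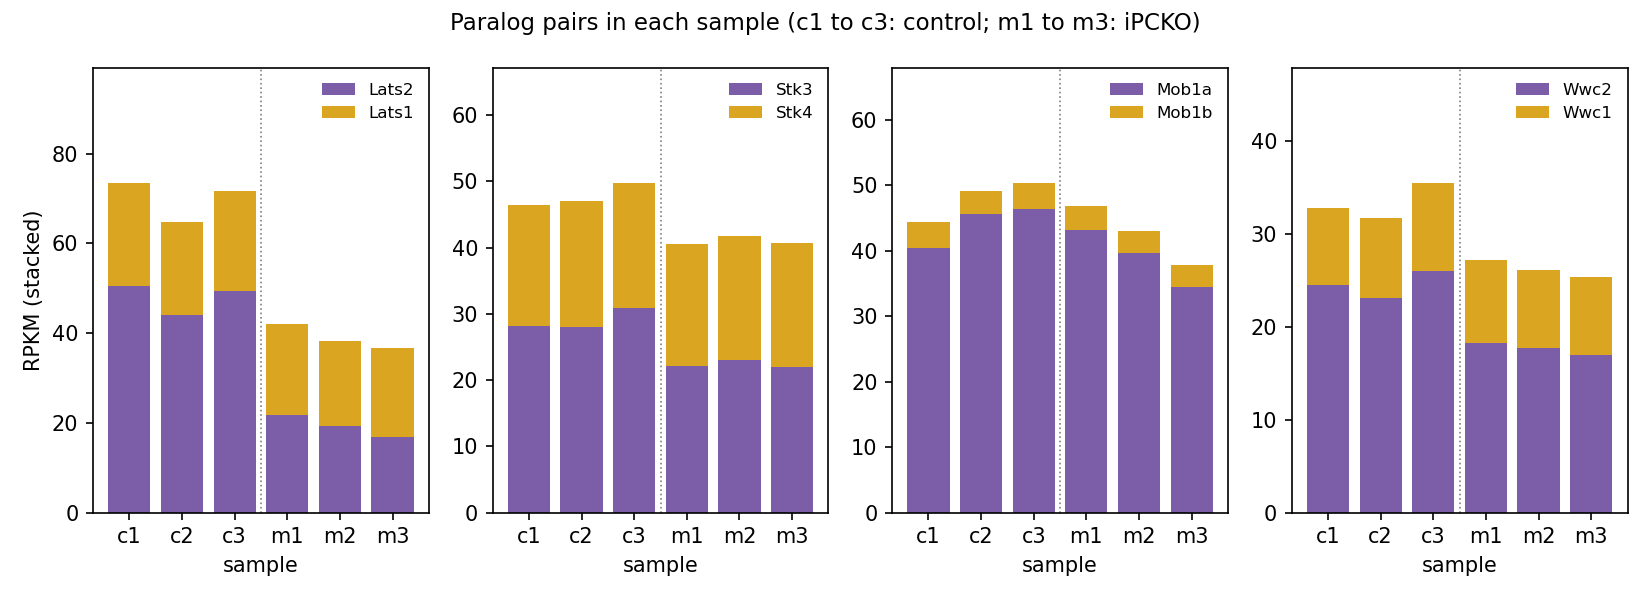
Stacked RPKM of the 4 paralog pairs in each control (c1 to c3) and iPCKO (m1 to m3) sample, with axes from 0. The summed LATS level lay between 64.7 and 73.5 RPKM in controls and between 36.7 and 42.0 RPKM in iPCKO samples, and the share of Lats2 was lower in each iPCKO sample, while Mob1a took over 90% of its pair in every sample.

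Kinases and adaptors that act beside or above the core were read from the same fit. Of 26 such genes, all tested, 2 were higher (Stk38l and Rassf4) and 5 lower (Rassf6, Map4k3, Rassf5, Map4k5 and Frmd6) in iPCKO pericytes. Over all tested genes 4.11% were called higher and 2.68% lower. The median log2 fold change of the 26 genes was -0.09. Stk38l, which encodes the LATS-related kinase NDR2, had 5.26, 6.66 and 6.13 RPKM in controls and 15.7, 19.3 and 16.8 RPKM in iPCKO samples. It rose in all 3 (log2 scale, 1.51 with a standard error of 0.12, adjusted p = 0.000131, limma), whereas its paralog Stk38 (NDR1) had 5.86 ± 0.81 and 6.32 ± 0.41 RPKM and did not pass (adjusted p = 0.57, limma). The RASSF proteins, several of which bind MST kinases, went both ways. Rassf6 fell from 4.43, 4.60 and 5.36 RPKM to 1.57, 0.966 and 0.609 RPKM (log2 fold change -2.18, standard error 0.27, adjusted p = 0.00130, limma). Rassf4 rose from 3.26, 3.64 and 3.73 RPKM to 7.68, 7.09 and 6.95 RPKM (log2 fold change 1.01, adjusted p = 0.000393, limma). Rassf5 was 23.9 ± 3.90 RPKM in controls and 14.6 ± 1.31 RPKM in iPCKO samples (log2 fold change -0.69, adjusted p = 0.00832, limma), and Rassf1 10.4 ± 0.56 and 7.65 ± 0.44 RPKM (adjusted p = 0.013, not called). Rassf2 and Rassf3 overlapped between groups.

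The MAP4K kinases can phosphorylate LATS in parallel to MST. Map4k3, the member with the highest level, had 152.5, 110.6 and 117.3 RPKM in controls and 83.8, 72.1 and 75.0 RPKM in iPCKO samples (log2 fold change -0.71, adjusted p = 0.00913, limma). Map4k5, at 15.0 ± 1.03 RPKM in controls, fell to 9.90 ± 0.26 RPKM (-0.59 on the log2 scale, adjusted p = 0.00260, limma), while Map4k1, Map4k2, Map4k4, Mink1 and Tnik were not called. Frmd6 (Willin), a FERM-domain relative of merlin, had 34.5 ± 2.96 RPKM in controls and 23.8 ± 1.99 RPKM in iPCKO samples (-0.54 on the log2 scale, adjusted p = 0.00891, limma) and is named after its values were seen. The calls of Stk38l, Rassf4 and Rassf6 held without any single sample. That of Map4k5 was lost without control 2, control 3 or iPCKO 2 (log2 fold changes over the 6 fits between -0.63 and -0.54, adjusted p up to 0.0165). Map4k3 and Rassf5 were called in 1 of 6 such fits (without iPCKO 1 and without control 2), with log2 fold changes between -0.80 and -0.57 and between -0.81 and -0.57. Frmd6 was called in none (between -0.61 and -0.47, adjusted p up to 0.0452). With Y-linked transcripts as a covariate, only Stk38l of these genes was called (1.36, adjusted p = 0.00658), and none was among the samples without Y-linked transcripts, where its difference was 1.36 (adjusted p = 0.020). The leukocyte markers, which were higher in iPCKO samples, move with these values too, and their part was not tested.

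**Figure D4:**
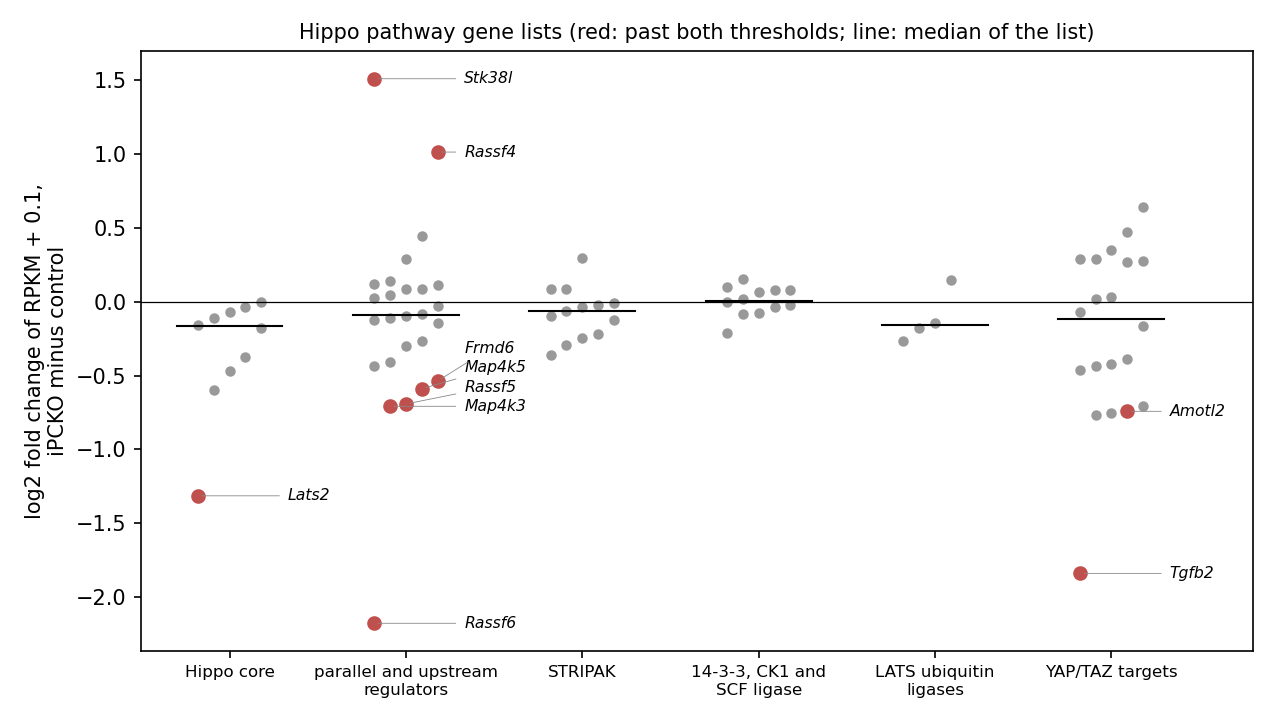
Log2 fold change of RPKM + 0.1, iPCKO minus control, for each tested gene of the core and of 5 further lists of the pathway, with the median of each list as a line and called genes in red. The core held 1 called gene (Lats2), the parallel and upstream regulators 7, the YAP/TAZ targets 2 and the other lists none. Of all tested genes 6.79% were called.

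Transcripts that YAP1 and TAZ are known to activate in other cells were set beside the core, since LATS acts on these factors. Of 20 such genes, all tested, 2 fell and 0 rose by limma on RPKM, against 2.68% and 4.11% of all tested genes. Their median log2 fold change in that fit was -0.12, and limma voom called 2. By either tool 10 had an unadjusted p under 0.05, as did 29.7% of all genes by limma on RPKM. Ccdc80, an extracellular matrix protein gene, had the estimate furthest above 0, with 88.9, 75.4 and 82.7 RPKM in controls and 148.5, 132.4 and 106.8 RPKM in iPCKO samples (log2 scale 0.64, adjusted p = 0.0143, not called, named after its values were seen). Tgfb2, a growth factor, fell to 13.5 ± 1.25 RPKM from 48.2 ± 2.01 RPKM, and Amotl2, which encodes an angiomotin that binds YAP1, fell from 29.0, 34.2 and 32.1 RPKM to 20.1, 19.5 and 17.3 RPKM (log2 fold change -0.74, adjusted p = 0.00162, limma). The call of Amotl2 was lost without control 3 (-0.73, adjusted p = 0.0105), with the Y-linked covariate (-0.85, adjusted p = 0.021) and among the samples without Y-linked transcripts (-0.85, adjusted p = 0.039). The widely used targets Ccn1 and Ccn2, named outside the rule as Rassf1 and Stk38 were, were not called. Ccn1 had 23.1, 77.5 and 91.9 RPKM in controls and 32.8, 40.0 and 25.5 RPKM in iPCKO samples, and Ccn2 had 49.98, 94.1 and 114.4 RPKM and 45.9, 61.6 and 39.4 RPKM. Control 1 was below all iPCKO samples for Ccn1 and within their range for Ccn2, so the groups overlapped (adjusted p = 0.30 and 0.12, limma). The level of Lats2 in control 1 was the highest of all samples.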

How the data were processed

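Ribosome-associated RNA of 3 control and 3 Yap1,Wwtr1 iPCKO lungs was sequenced in paired-end runs from stranded total RNA libraries. The authors mapped reads to mm10 (GRCm38) with TopHat, counted them with HTSeq (0.6.1) and deposited RPKM per Ensembl gene, in which depth and gene length are divided out. The length used, and whether counting was by strand, are not given in the sources used here. Symbols and coordinates came from GENCODE M21 (21375 genes matched).

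RPKM were tested as log2(RPKM + 0.1) with limma 3.58.1 (lmFit, eBayes with trend) in R 4.3.3, without further scaling, and p-values were adjusted by the Benjamini-Hochberg method over the 12034 genes that reached 1 RPKM in 3 or more samples. Fold changes on this scale understate those of low genes. Thresholds were those of the study. Paralog ratios were compared by exact permutation over samples. The limma fit was also run on simulated data with independent normal noise and known changes. The simulation held no differences in sex or blood cell RNA, so it cannot speak to their part. Tables and permutation tests were made in Python 3.11.15 (scipy 1.17.1, pandas 2.3.3, numpy 2.4.6) and plots with matplotlib 3.10.9.

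The RPKM of 12029 tested genes (99.96%) were whole reads in all 6 samples, within 0.01 reads plus 2e-07 of the count, for a single length and library total. These totals were 19.71, 17.44 and 34.7 M reads in controls 1 to 3 and 21.17, 39.64 and 14.26 M in iPCKO 1 to 3. Intervals and counting errors cover the samples and reads measured here. The series describes 3 mice, but whether each sample is a separate animal is not stated per sample. The limma p-values set the group difference against the spread between these samples, moderated over all tested genes. That spread may not be one between animals.

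The members and lists were chosen with earlier results of these data known. Named genes were all members, the deleted genes and up to 6 called genes per list without overlap between groups. Further genes of the lists, called or not, were named after their values were seen. No sample was left out. Alternatives were other pseudocounts, filters, scalings, weights, thresholds, a replicate block, a Y-linked covariate and each sample left out. The limma voom fit on recovered reads and the fit on samples without Y-linked transcripts were added after seeing the data.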

Additional observations from a re-analysis of the deposited data

How the results depend on the processing

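Over all genes 817 were called, against 1313 at an adjusted p-value below 0.05, 411 at an absolute log2 fold change above 1, 1590 with limma array weights, 119 with Y-linked transcripts as a covariate and 31 among the samples without Y-linked transcripts. Leaving out single samples gave 382 (without control 3) to 899 genes, with 414 without iPCKO 2 and 499 without iPCKO 3. Of the core genes 1 was called. Lats2 and Sav1, 2 core genes, were called at an adjusted p-value below 0.05, with quantile normalization, with array weights and with the replicate block. Without a threshold on size 2 were called, Lats2 and Wwc2. Among the samples without Y-linked transcripts, which hold a single control, Lats2 was -1.19 and no core gene was called. Lats2 was called in 16 of 17 alternative fits (adjusted p between 3.9e-06 and 0.030), at -1.40 to -1.22 without single samples. Sav1 passed at -0.64 with quantile normalization and at -0.53 with array weights, and ranged from -0.69 to -0.48 without single samples.

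Whether the replicate numbers pair the samples is not known. Deviations of same-numbered samples correlated with r = 0.24, 0.09 and 0.02, and those of differently numbered samples with r between -0.30 and 0.27. Deviations from means of so few samples cannot decide the question. With the replicate block 922 genes were called, Sav1 was called at -0.60, the YAP/TAZ targets gave 4 calls in place of 2, and no other core gene changed its call.

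The sign of 3 estimates near 0 turned. Nf2 was 0.0185 with array weights, 0.0822 with the Y-linked covariate, 0.0859 among the samples without Y-linked transcripts and -0.145 to 0.0421 without single samples (above 0 without control 1). Stk4 was between -0.0204 and 0.0065, and Wwc1 between -0.0829 and 0.0143, without single samples. The cause was not tested. The parallel and upstream regulators gave 0 to 7 calls and the targets 1 to 7, while under other pseudocounts and without single samples the difference in log2 ratio lay between -1.23 and -1.05 for Lats2 to Lats1, -0.40 and -0.33 for Stk3 to Stk4, -0.46 and -0.39 for Wwc2 to Wwc1, and -0.13 and -0.0015 for Mob1a to Mob1b. With limma voom on recovered reads Lats2 was -1.32 and every core gene kept its call. Counting error was at most 4.33% per sample for any core gene (Mob1b).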

Other observations

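The STRIPAK complex, a phosphatase assembly that removes phosphate from the MST kinases, had no called gene among its 13 tested members by limma on RPKM or by limma voom, although 5 had an unadjusted p-value below 0.05 by either tool, as did 29.7% of all tested genes by limma on RPKM. By limma on RPKM 6.79% of all tested genes were called. The median log2 fold change of the STRIPAK genes was -0.06. The largest estimate below 0 was that of Strn3, a striatin scaffold, with 30.9, 32.6 and 38.0 RPKM in controls and 28.1, 25.3 and 25.5 RPKM in iPCKO samples (log2 fold change -0.36, adjusted p = 0.047, limma). The largest above 0 was that of Stk24, an associated kinase, with 62.5, 52.0 and 53.9 RPKM in controls and 72.5, 64.8 and 69.1 RPKM in iPCKO samples (log2 fold change 0.30, adjusted p = 0.086, limma). Strip2 and Stk26 were under the filter on low values, at no more than 0.270 and 0.679 RPKM.

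Transcripts of the proteins that hold or degrade phosphorylated YAP1 and TAZ had estimates closer to 0. None of 12 genes for 14-3-3 proteins, casein kinase 1 and subunits of the SCF ligase was called by limma on RPKM or by limma voom. By either tool 0 of them had an unadjusted p-value below 0.05, and the groups overlapped for each. Their log2 fold changes ranged from -0.21 to 0.15. By limma on RPKM 6.79% of all tested genes were called, and 29.7% had an unadjusted p-value below 0.05. All iPCKO samples lay below all controls in 17.1% of tested genes and above them in 18.3%. Of 4 ubiquitin ligases that act on LATS kinases none was called by limma on RPKM or by limma voom. An unadjusted p-value below 0.05 was found for 1 of them, and for 29.7% of all tested genes by limma on RPKM. Itch, Wwp1 and Nedd4 were lower in all iPCKO samples than in controls, as were 17.1% of all tested genes. Itch had 11.0, 13.3 and 14.5 RPKM in controls and 10.6, 10.8 and 10.6 RPKM in iPCKO samples (log2 fold change -0.27, adjusted p = 0.15, limma). Nedd4 had 177.4, 188.2 and 187.2 RPKM in controls and 154.6, 174.0 and 160.4 RPKM in iPCKO samples (log2 fold change -0.18, adjusted p = 0.26, limma). None of these genes was named by the rule, and they were chosen after their values were seen.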
